A study of Mus musculus with 6 samples.

Results

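The potassium channel genes of mouse endometriosis-like lesions were described in RNA-seq counts of 3 libraries from niclosamide-treated and 3 libraries from vehicle-treated recipients. Members were taken by symbol, as every row named Kcn followed by a subfamily letter code and a number. Of 41786 gene symbols, 97 had such a name, and 95 of them were kept; the selection leaves out 2 further symbols. Of the 95 members, 91 encode proteins: 40 voltage-gated subunits, 15 inward rectifiers, 13 two-pore channels, 5 calcium-activated channels, 3 sodium-activated or sperm-type (Slo3) channels and 15 accessory subunits. The other 4 are non-coding transcripts next to channel genes.

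All mice were C57BL/6 females. In both groups the donors of the uterus were B6-GFP positive and 6 weeks old, the recipients were wild type and 8 weeks old, and the tissue was stitched onto the peritoneum of the body wall. Treatment began after 3 days. The niclosamide group received 200 mg/kg body weight of niclosamide by mouth each day for 3 weeks, and the vehicle group received the vehicle alone over the same time. Niclosamide is an oral anthelmintic that uncouples mitochondria and is known to inhibit STAT3 signalling. Lesions were collected in diestrus and freed from recipient tissue. Niclosamide libraries 1 to 3 and vehicle libraries 2 and 3 came from 1 mouse each, whereas vehicle 1 pooled the RNA of 4 mice. The graft is a piece of whole uterus, so the libraries mix epithelium, stroma, smooth muscle, vessels and immune cells of donor and recipient. In such bulk RNA, fewer cells of a type and less RNA per cell cannot be told apart.

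Potassium channels let potassium leave the cell and so set the resting potential and shape how long a cell stays excited. Voltage-gated subunits open on depolarisation, and calcium-activated ones when calcium rises. Inward rectifiers and two-pore channels carry resting current, the ATP-sensitive inward rectifiers following the metabolic state of the cell. In the uterus these channels hold the smooth muscle between contractions, move salt and water across the epithelium, and act in vessels and in migrating immune cells. Channel RNAs are usually scarce beside structural genes.

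The libraries held 27797121 to 34797000 counted reads, of which the 95 members took 0.0438 to 0.0632%. The floor of 3 counts, which a count of 0 allows, was 0.0862 to 0.108 CPM, the read count relative to the library total. The CPM of marker lists used library sizes scaled by TMM. Of the marker lists for the cell types that a lesion could hold, the summed smooth muscle markers were 3441, 2407 and 6244 CPM in niclosamide 1 to 3, against 9985, 7194 and 9429 in vehicle 1 to 3. The log2 fold change of every one of the 12 smooth muscle markers was negative (median -1.19). Other lists were also of 1 sign. All 12 uterine epithelial markers were below 0 (median -0.34). All 12 skeletal muscle markers (median 0.74) and all 12 T and NK cell markers (median 0.97) were above 0. So were all 6 adipocyte markers (median 0.63), while all 5 tested structural RNAs were below 0 (median -2.56). Skeletal muscle markers, which the body wall under the graft expresses, were at 37100, 888 and 13190 CPM in niclosamide 1 to 3 and at 5189, 12600 and 13120 in vehicle 1 to 3. Uterine epithelial markers were at 486, 3024 and 749 CPM in niclosamide 1 to 3 and at 2618, 1529 and 1258 in vehicle 1 to 3. T and NK cell markers were at 744, 843 and 569 in niclosamide 1 to 3, above the 396, 380 and 327 of vehicle 1 to 3. No marker of these lists was at 0 in every library, and none passed the test described below. Smooth muscle and T and NK cell sums thus did not overlap between the groups, while skeletal muscle and epithelium set single niclosamide libraries apart from each other.

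The lesions expressed 41 members at a mean of at least 1 TPM, the read count per length scaled to the same sum in every library, over the 6 libraries. They were 18 of 40 voltage-gated subunits, 5 of 15 inward rectifiers, 5 of 13 two-pore channels, 4 of 5 calcium-activated channels, 1 of 3 sodium-activated or sperm-type channels, 8 of 15 accessory subunits and none of the 4 non-coding transcripts. Only 8 members reached 10 TPM: Kcnk1, Kcnn4, Kcnj8, Kcne4, Kcna7, Kcnk6, Kcne3 and Kcnj2. The median of the 41 was 3.31 TPM, beside 18.5 TPM for the 15518 genes at or above the same level. Of the rest, 25 members lay between 0.1 and 1 TPM and 29 below 0.1 TPM. Listed at 0 in every library were 6 members, Kcna10, Kcnj6, Kcnk9, Kcnk16, Kcnk18 and Kcnv1. The 5 highest members held 45.2% of the summed TPM of the family, and the 41 expressed ones 96.4%. Just inside the level were Kcna5 and Kcnmb4 at 1.04 TPM, and just outside it Kcns3 at 0.99 TPM.

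**Figure D1:**
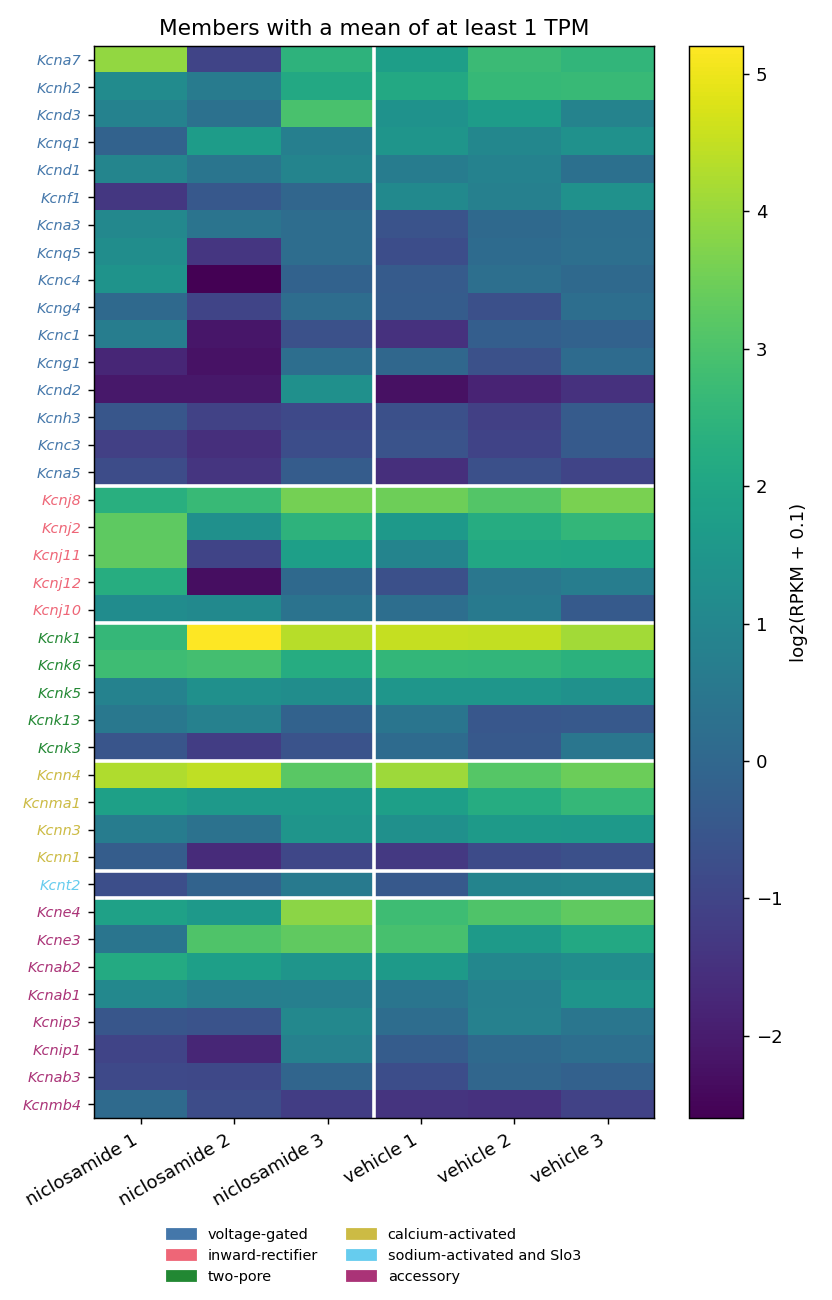
Heat map of 39 of the 41 members with a mean of at least 1 TPM (rows, grouped and coloured by class, highest first in each class) in niclosamide 1 to 3 and vehicle 1 to 3 (columns). Colour is log2 of RPKM plus 0.1. Kcnk1 is brightest in niclosamide 2, and Kcna7, Kcnj11, Kcnj12 and Kcnc4 are bright in niclosamide 1 and dark in niclosamide 2.

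No pore-forming class dominated the lesions. Voltage-gated subunits made up 34.2, 13.8 and 33.9% of the summed TPM of pore-forming members in niclosamide 1 to 3, against 25.9, 31.8 and 30.8% in vehicle 1 to 3. Inward rectifiers made up 28.2, 11.6 and 22.2% in niclosamide lesions and 17.8, 19.5 and 23.2% in vehicle lesions. The niclosamide values of both classes reached above and below all vehicle values. Two-pore channels took 14.8, 47.8 and 27.7% in niclosamide lesions and 33.1, 30.6 and 24.9% in vehicle lesions. Calcium-activated channels took 22.2, 25.9 and 14.6% in niclosamide lesions and 22.5, 16.2 and 19.1% in vehicle lesions. The sodium-activated and sperm-type channels stayed between 0.643 and 2.0% in all libraries. The group means lay within 3 percentage points of each other in every class, for example 30.1 ± 16.6% with niclosamide and 29.5 ± 4.20% with vehicle for two-pore channels (SD, n = 3 each), and niclosamide and vehicle libraries overlapped in each class.

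**Figure D2:**
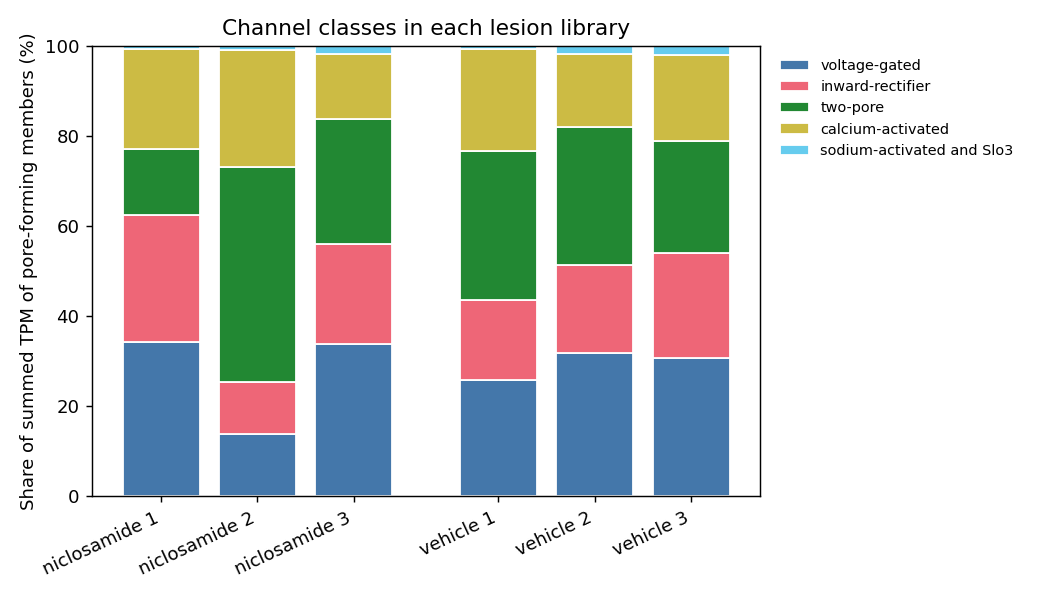
Share of each class in the summed TPM of the pore-forming members (vertical axis, %) for niclosamide 1 to 3 and vehicle 1 to 3. The 3 vehicle bars are alike, while the two-pore share is 14.8% in niclosamide 1 and 47.8% in niclosamide 2.

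The totals of the 4 main pore-forming classes and of the accessory subunits had similar means in both groups. The log2 ratio of mean summed TPM, niclosamide over vehicle, was -0.23 for voltage-gated subunits, -0.09 for inward rectifiers, -0.13 for two-pore channels, -0.02 for calcium-activated channels and -0.05 for accessory subunits. TPM moved the median of all tested genes by -0.13 on the log2 scale, whereas RPKM, the read count per length and per library size scaled by TMM, moved it by 0.02. On the RPKM scale the same 5 log2 ratios were -0.08, 0.07, 0.02, 0.14 and 0.06, so the sign of 4 of them rests on the scale. The 2 small classes differed more. The non-coding transcripts summed to 1.65, 1.95 and 2.56 TPM in niclosamide 1 to 3, above the 0.499, 1.22 and 1.45 TPM of vehicle 1 to 3, with a log2 ratio of 0.96 in TPM and 1.12 in RPKM. The ratio was 0.20 as summed CPM, in which long transcripts weigh more. The shorter non-coding transcripts had few reads. In vehicle 1, Kcnmb4os2 had 3, Kcnd3os 2 and Kcnmb4os1 0 reads, at or below the floor of 3 counts. The sodium-activated and sperm-type channels had a log2 ratio of -0.67 in TPM and -0.53 in RPKM. The whole family was at 273, 263 and 342 TPM in niclosamide 1 to 3 and at 286, 338 and 330 TPM in vehicle 1 to 3. Levels per library below are RPKM, and log2 fold changes are from edgeR, niclosamide over vehicle.

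Tested against vehicle with edgeR's quasi-likelihood test, 59 of the 95 members had enough counts, among them all 41 expressed ones. No member passed a Benjamini-Hochberg adjusted p of 0.05, as was so for all 17364 genes tested (0% called); the lowest adjusted p of a member was 0.557, that of Kcns1. The median log2 fold change of the 59 was 0.00, with 30 above and 29 below 0, beside a median of 0.02 for all genes tested. An unadjusted p under 0.05 was found for 8 members, or 13.6%, beside 6.92% of all genes tested. All 8 were lower in niclosamide lesions, where 3.55% of all genes tested had such a p and were lower and 3.37% had one and were higher. DESeq2 called 1 member at an adjusted p under 0.05, Kcnf1, beside 0.982% of the genes it tested.

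The groups did not overlap for 7 members, 11.9% beside a background of 12.3%. All 7 were lower with niclosamide, where the background in that direction was 6.37%, and 0 were higher, beside 5.9% of all genes. Among them were Kcns1, Kcnf1, Kcns3, Kcnk3, Kcnk5 and Kcnip4. The family thus had about as many separated members as other genes, and those were on the low side of niclosamide.

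**Figure D3:**
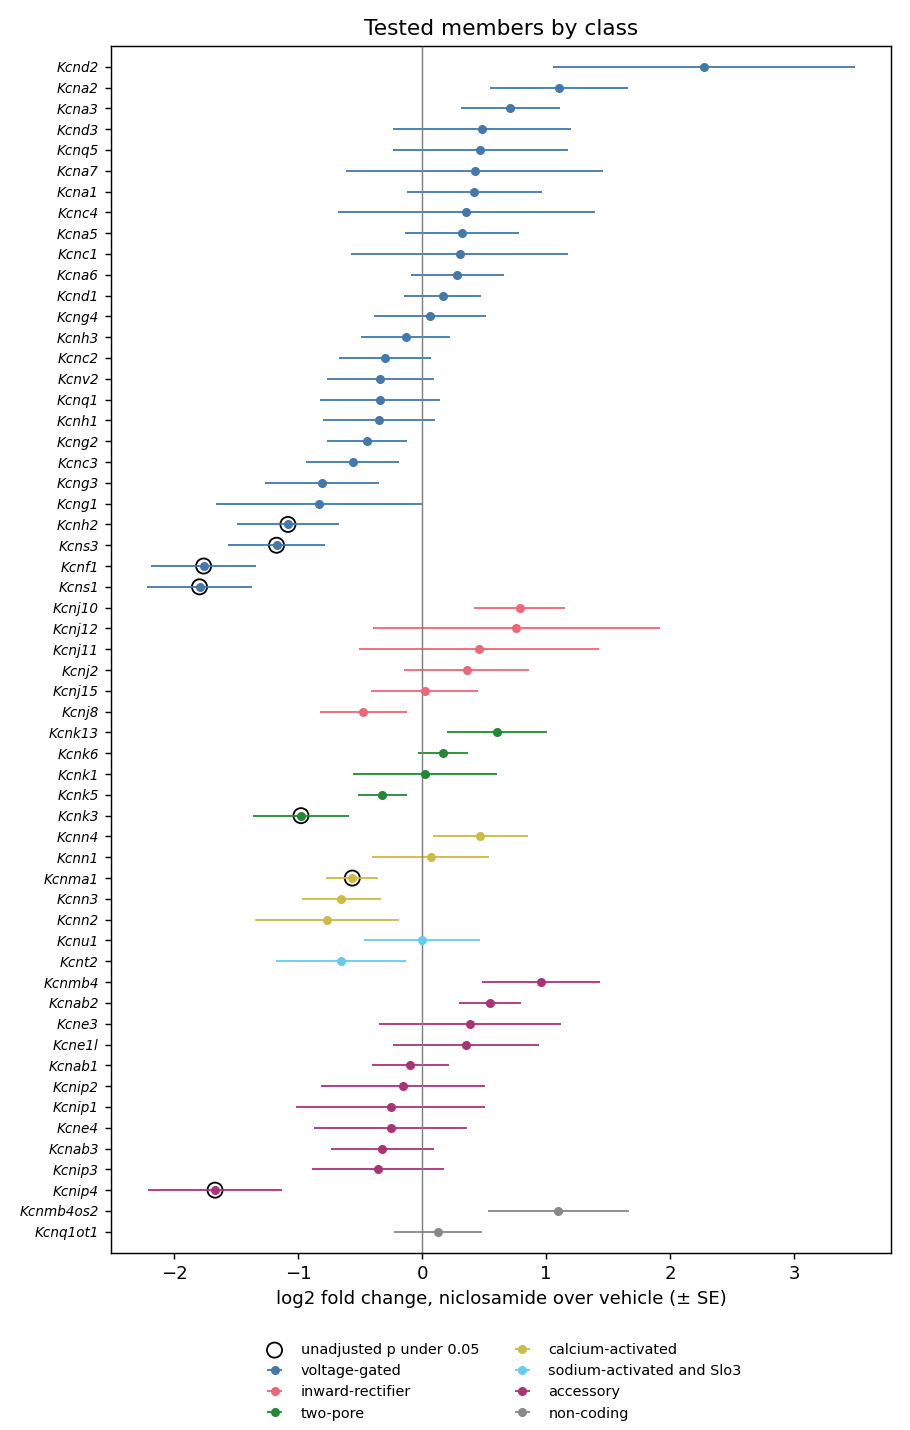
Log2 fold change of niclosamide over vehicle with its standard error (horizontal axis) for 57 of the 59 tested members (rows), coloured by class. The 7 circled members have an unadjusted p under 0.05 and all lie left of 0.

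Some voltage-gated subunits form no channel of their own. Kcnf1, Kcng, Kcns and Kcnv genes encode such silent subunits, which assemble with other voltage-gated subunits and alter their gating. Of 10 silent subunits, 8 were tested, with a median log2 fold change of -0.82. A fold change below 0 was found for 7 of these, or 87.5%, beside 46.3% of all genes tested. An unadjusted p under 0.05 was found for 3, or 37.5%, all lower. Of all genes tested, 3.55% had such a p and were lower. The other 20 tested voltage-gated subunits had a median of 0.29, with 12 above and 8 below 0, and 2 with such a p. The split into silent and other subunits was made after the values had been seen, and the difference between the 2 sets was not tested.

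Kcnf1 was the expressed silent subunit with the lowest fold change. It was at 0.298, 0.626 and 0.877 RPKM in niclosamide 1 to 3, against 2.04, 1.65 and 2.43 RPKM in vehicle 1 to 3. Every niclosamide library was below every vehicle library. The means were 0.600 ± 0.290 RPKM with niclosamide and 2.04 ± 0.388 RPKM with vehicle (SD, n = 3 each), a log2 fold change of -1.76 ± 0.42 (SE; unadjusted p = 0.00478, adjusted p = 0.564). With DESeq2 the log2 fold change was the same and the adjusted p 0.0084; over all alternatives the adjusted p of Kcnf1 ran from 0.0084 to 1.00.

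Kcns1 was scarce, with 3, 6 and 3 reads in niclosamide 1 to 3 and 12, 14 and 17 reads in vehicle 1 to 3. In RPKM these were 0.0376, 0.0684 and 0.0344 in niclosamide lesions and 0.161, 0.142 and 0.197 in vehicle lesions. The groups did not overlap, and the log2 fold change was -1.79 ± 0.42 (SE; unadjusted p = 0.00459, adjusted p = 0.557). Niclosamide 1 and 3 lay at the floor of 3 counts, so the size of this difference is poorly fixed.

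Kcns3 was at 0.251, 0.307 and 0.183 RPKM in niclosamide 1 to 3, against 0.385, 0.841 and 0.448 RPKM in vehicle 1 to 3. Its groups did not overlap either, vehicle 2 being the highest library (log2 fold change -1.17 ± 0.39, unadjusted p = 0.0222, adjusted p = 0.648). Without vehicle 2 the log2 fold change of Kcns3 was -0.75 with an unadjusted p of 0.0863. Kcng1 was at 0.196, 0.114 and 1.06 RPKM in niclosamide 1 to 3 and at 0.900, 0.537 and 0.998 RPKM in vehicle 1 to 3, so that niclosamide 3 lay above all vehicle libraries. Kcng4, the one tested silent subunit with a fold change above 0, had 0.955, 0.401 and 1.03 RPKM in niclosamide lesions and 0.700, 0.518 and 1.06 RPKM in vehicle lesions, which overlapped.

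Kcnf1, Kcns1 and Kcns3 were thus lower together in niclosamide libraries, in which the summed smooth muscle markers were lower too. Within the groups the order differed. The marker sum was lowest in niclosamide 2 and vehicle 2, where Kcns3 was highest of its group. Kcns1 was also highest of its group in niclosamide 2, and Kcnf1 was lowest in niclosamide 1. In vehicle 2, Kcnf1 and Kcns1 were lowest of their group, as the markers were. The part of the smooth muscle content in these values was not tested.

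The sequences before the starts of Kcnf1, Kcns1 and Kcns3 are shown because these 3 silent subunits had the lowest unadjusted p of their kind. Each is the 250 bases upstream of the RefSeq start (GRCm38.p6), on the minus strand and written 5′ to 3′, at chr12:17176889-17177138 for Kcnf1, chr2:164171114-164171363 for Kcns1 and chr12:11150843-11151092 for Kcns3. Capitals mark matches, on either strand, to 3 motifs: TTCNNNGAA, the palindrome that STAT factors bind, CTTTGA, the core of TCF/LEF sites, and GGGCGG, the GC box.
Kcnf1: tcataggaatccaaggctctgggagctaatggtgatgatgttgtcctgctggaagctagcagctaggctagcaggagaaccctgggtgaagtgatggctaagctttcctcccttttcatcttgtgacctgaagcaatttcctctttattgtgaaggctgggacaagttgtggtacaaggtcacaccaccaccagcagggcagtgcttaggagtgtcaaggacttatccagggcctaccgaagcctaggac
Kcns1: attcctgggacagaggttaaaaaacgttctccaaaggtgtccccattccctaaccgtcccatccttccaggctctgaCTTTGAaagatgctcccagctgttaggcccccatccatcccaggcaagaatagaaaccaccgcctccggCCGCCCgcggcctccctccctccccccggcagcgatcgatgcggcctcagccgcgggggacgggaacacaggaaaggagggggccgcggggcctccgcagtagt
Kcns3: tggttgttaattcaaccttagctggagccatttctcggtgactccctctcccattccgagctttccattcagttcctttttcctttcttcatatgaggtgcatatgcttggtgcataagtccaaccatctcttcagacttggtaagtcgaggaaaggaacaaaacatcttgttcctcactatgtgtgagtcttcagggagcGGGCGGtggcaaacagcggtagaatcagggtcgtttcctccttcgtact
Kcnf1 held none of the 3 motifs in this window, Kcns1 held 1 TCF/LEF core and 1 GC box, and Kcns3 held 1 GC box. The start of Kcns3 lies inside the gene as the count files draw it. GC content was 51.2% for Kcnf1, 63.2% for Kcns1 and 47.2% for Kcns3, beside a median of 52.4% for all windows. Of all 32851 RefSeq windows of this length, 7.02% held the STAT palindrome, 13.8% the TCF/LEF core and 32.7% the GC box. The 91 windows of the 69 members in the table held them in 7.69, 6.59 and 46.2% of cases. These matches are descriptions of letters and show no binding.

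**Figure D4:**
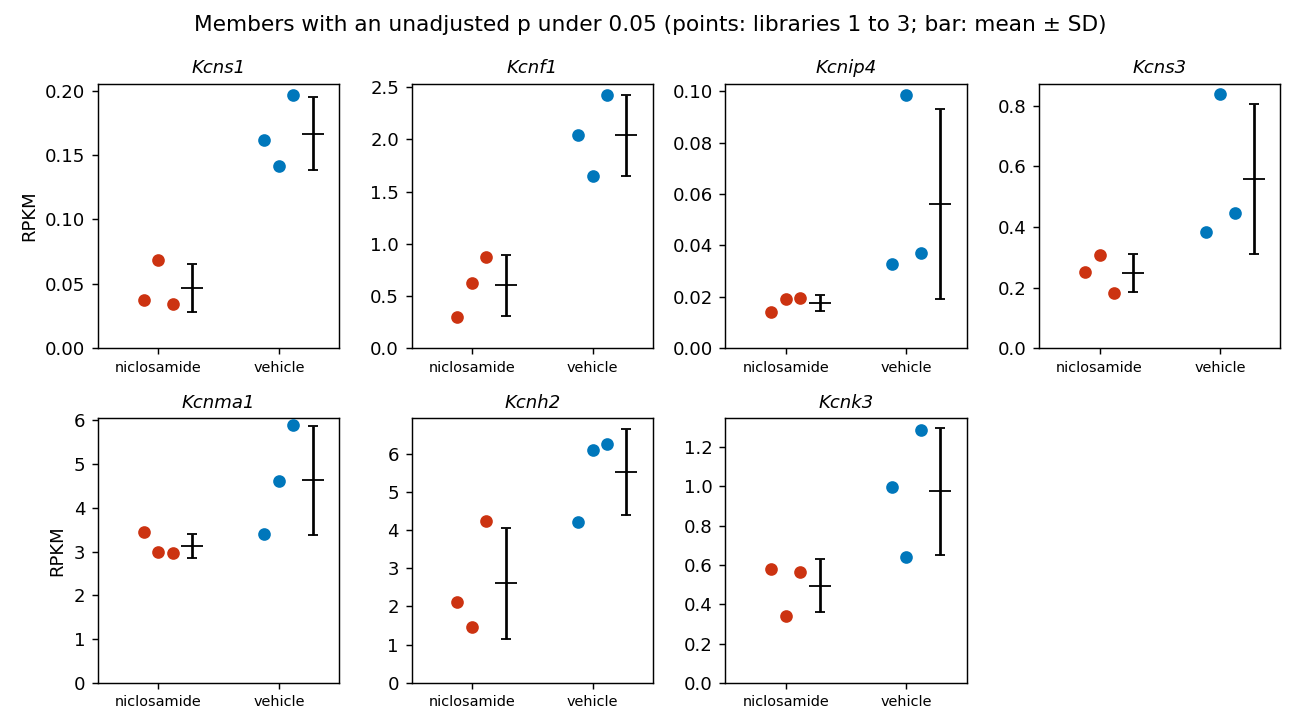
RPKM (vertical axes, each from 0) of 7 of the 8 members with an unadjusted p under 0.05, in niclosamide lesions (red) and vehicle lesions (blue). Points are libraries 1 to 3 and bars the mean ± SD. The groups are apart except for Kcnma1 and Kcnh2, whose highest niclosamide library exceeds vehicle 1.

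Kcnh2, the ether-a-go-go related channel that holds smooth muscle and heart between depolarisations, was at 2.13, 1.46 and 4.23 RPKM in niclosamide 1 to 3 and at 4.22, 6.09 and 6.25 RPKM in vehicle 1 to 3. Niclosamide 3 and vehicle 1 touched, while the other niclosamide libraries were below all vehicle libraries (log2 fold change -1.08 ± 0.41, unadjusted p = 0.0358, adjusted p = 0.683). Without niclosamide 3 the log2 fold change was -1.61. Niclosamide 3 also had the highest smooth muscle marker sum of its group, whereas vehicle 1 had the highest sum of all libraries and the lowest Kcnh2 level among vehicle libraries.

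Several voltage-gated subunits separated the niclosamide lesions from each other and not from vehicle. Kcna7, a subunit known from skeletal muscle and heart and the highest voltage-gated member on average, was at 15.1, 0.398 and 5.32 RPKM in niclosamide 1 to 3, against 3.32, 6.48 and 5.69 RPKM in vehicle 1 to 3. Niclosamide 1 was above and niclosamide 2 below every vehicle library. Kcnc4, a rapidly inactivating subunit, showed the same order with 2.58, 0.0651 and 0.809 RPKM in niclosamide lesions and 0.673, 1.08 and 0.942 RPKM in vehicle lesions. The M-current subunit Kcnq5 was at 2.23, 0.292 and 1.04 RPKM in niclosamide 1 to 3 and at 0.487, 0.993 and 1.09 RPKM in vehicle 1 to 3. Niclosamide 1 was again high and niclosamide 2 low. Kcnq1, a subunit of epithelia and heart, ran the other way, with 0.803, 3.16 and 1.60 RPKM in niclosamide 1 to 3 and 2.67, 1.92 and 2.45 RPKM in vehicle 1 to 3. The unadjusted p of these 4 subunits lay between 0.511 and 0.743.

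Kcnd3 and Kcnd2 encode A-type subunits, which carry brief transient currents. Kcnd3 was at 1.71, 1.15 and 7.62 RPKM in niclosamide 1 to 3, against 2.52, 3.21 and 1.76 RPKM in vehicle 1 to 3. Kcnd2 was at 0.135, 0.136 and 2.4 RPKM in niclosamide 1 to 3, against 0.112, 0.181 and 0.256 RPKM in vehicle 1 to 3. Both were highest in niclosamide 3, while the other niclosamide libraries were within or below the vehicle range. Kcnd2 had the highest fold change of the 59 tested members, at 2.27 ± 1.22 on the log2 scale, with an unadjusted p of 0.109; it was singled out after its values had been seen. Kcnd1, the third gene of this subfamily, overlapped between the groups and was not highest in niclosamide 3, at 1.82, 1.25 and 1.80 RPKM in niclosamide lesions and 1.51, 1.71 and 1.11 RPKM in vehicle lesions. Kcna3, the subunit of T lymphocytes, was at 1.95, 1.21 and 1.04 RPKM in niclosamide 1 to 3 and at 0.556, 0.949 and 1.05 RPKM in vehicle 1 to 3. The groups touched at niclosamide 3 and vehicle 3 (log2 fold change 0.71 ± 0.40, unadjusted p = 0.119), beside T and NK cell markers that were higher in all 3 niclosamide libraries; their part was not tested.

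Among the inward rectifiers, 5 of 6 tested members had a fold change above 0, with a median of 0.41 and none with an unadjusted p under 0.05. For 3 of the 5 the sign rested on niclosamide 1: without it the log2 fold change was -0.80 for Kcnj11, -1.12 for Kcnj12 and -0.21 for Kcnj2. The member below 0 was the most abundant one, Kcnj8, the pore of the vascular ATP-sensitive channel in smooth muscle and pericytes. It was at 4.90, 6.19 and 11.9 RPKM in niclosamide 1 to 3 and at 11, 8.54 and 12.4 RPKM in vehicle 1 to 3. Niclosamide 1 and 2 were below all vehicle libraries and niclosamide 3 was not (log2 fold change -0.47 ± 0.35, unadjusted p = 0.223). The summed pericyte markers were at 415, 369 and 501 CPM in niclosamide 1 to 3, below the 543, 610 and 675 in vehicle 1 to 3. Of the 8 pericyte markers, 6 had a fold change below 0 and 2 above 0. The part of pericytes in the Kcnj8 values was not tested.

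Kcnj11, the pore of the ATP-sensitive channel of skeletal muscle and beta cells, was at 9.77, 0.405 and 3.39 RPKM in niclosamide 1 to 3, against 1.80, 4.14 and 3.92 RPKM in vehicle 1 to 3. Kcnj12, a strong rectifier of muscle, was at 4.67, 0.101 and 0.938 RPKM in niclosamide lesions and at 0.520, 1.30 and 1.54 RPKM in vehicle lesions. Kcnj2, the classical strong rectifier of muscle and heart, was at 9.44, 2.41 and 5.33 RPKM in niclosamide lesions and at 2.94, 4.64 and 5.79 RPKM in vehicle lesions. All 3 peaked in niclosamide 1 and had their lowest value in niclosamide 2, as Kcna7 did. Kcnj10, known from glia and epithelia, was at 2.17, 2.03 and 1.19 RPKM in niclosamide 1 to 3 and at 1.06, 1.41 and 0.656 RPKM in vehicle 1 to 3. Only niclosamide 3 and vehicle 2 overlapped for Kcnj10 (log2 fold change 0.79 ± 0.37, unadjusted p = 0.0728).

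Of the 59 tested members, 11 had their highest value of all 6 libraries in niclosamide 1 and their lowest in niclosamide 2, beside a background of 8.01% of all genes tested. Among them were Kcna1, Kcna7, Kcnc1, Kcnc4, Kcnh1, Kcnj2, Kcnj11, Kcnj12, Kcnn1 and Kcnq5. The summed skeletal muscle markers had the same highest and lowest library. So had the summed adipocyte markers, at 504 CPM in niclosamide 1 and 36.6 CPM in niclosamide 2. The part of either list in these values was not tested. The reverse pattern was found for 2 of the 59, Kcnk1 and Kcnq1, a share below the background of 5.51%. The uterine epithelial markers were likewise at their peak in niclosamide 2 and at their lowest in niclosamide 1. A further 12 members were highest in niclosamide 3, near the background of 19.6%.

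**Figure D5:**
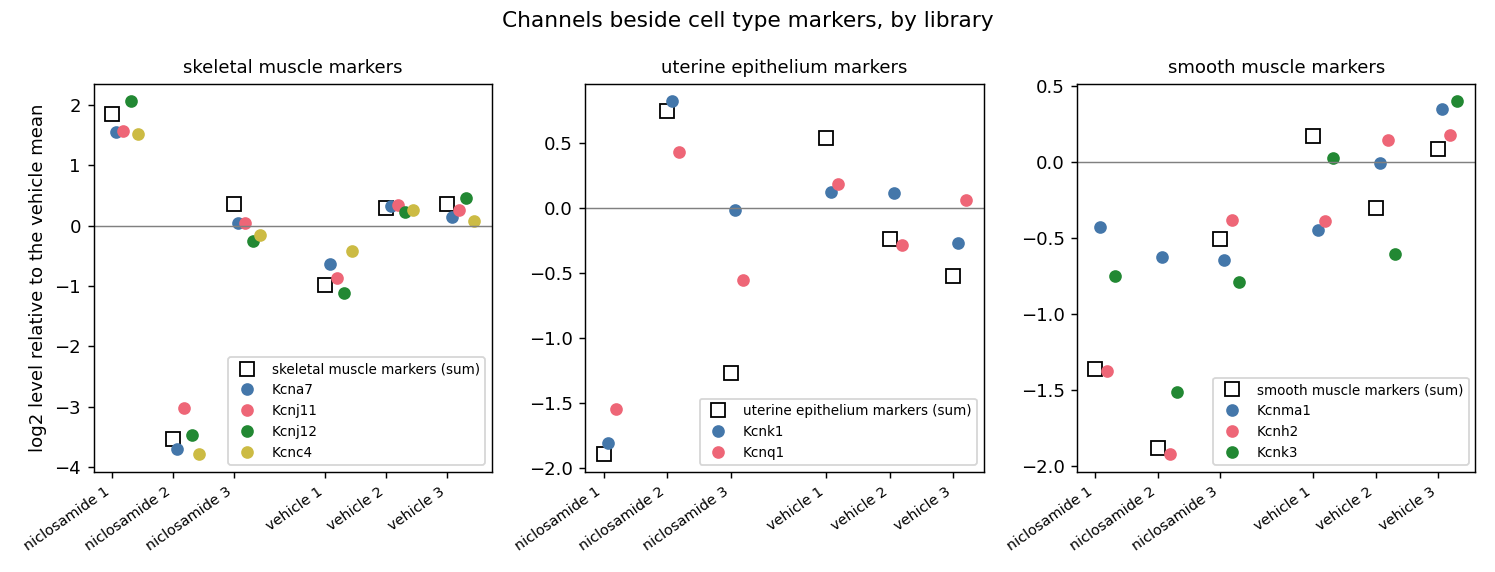
Log2 level relative to the vehicle mean (vertical axes) in niclosamide 1 to 3 and vehicle 1 to 3, for summed cell type markers (open squares) and single channels (filled points). Kcna7, Kcnj11, Kcnj12 and Kcnc4 lie close to the skeletal muscle markers. These 4 are a selection from the 11 tested members with their peak in niclosamide 1 and their minimum in niclosamide 2. Kcnj2, Kcnq5 and Kcnn1, also of the 11, fell less far in niclosamide 2. They were at 2.41, 0.292 and 0.222 RPKM there, beside vehicle means of 4.45, 0.857 and 0.429 RPKM. Kcnk1 and Kcnq1 share their extremes with the epithelial markers. Kcnma1, Kcnh2 and Kcnk3 are shown beside the smooth muscle markers.

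The two-pore channels were led by Kcnk1, a weak leak channel of epithelia and other tissues and the most abundant member of the family. Kcnk1 was at 5.96, 36.7 and 20.6 RPKM in niclosamide 1 to 3, against 22.6, 22.5 and 17.2 RPKM in vehicle 1 to 3. Its means of 21.1 ± 15.4 RPKM with niclosamide and 20.8 ± 3.08 RPKM with vehicle (SD, n = 3 each) were alike, but niclosamide 1 and niclosamide 2 lay on opposite sides of all vehicle libraries. Kcnk6, a related channel of endolysosomes and the cell surface, was even, with 6.83, 7.23 and 4.58 RPKM in niclosamide 1 to 3 and 5.79, 5.68 and 5.12 RPKM in vehicle 1 to 3.

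Neither of the 2 two-pore channels with a fold change below 0 passed the adjusted test. Kcnk3, an acid-sensitive background channel of smooth muscle, was at 0.580, 0.341 and 0.563 RPKM in niclosamide 1 to 3 and at 0.995, 0.642 and 1.29 RPKM in vehicle 1 to 3. The groups did not overlap (log2 fold change -0.98 ± 0.38, unadjusted p = 0.0408, adjusted p = 0.697). Kcnk5, an epithelial channel opened by alkaline pH, was at 1.72, 2.41 and 2.22 RPKM in niclosamide lesions and at 2.75, 2.73 and 2.44 RPKM in vehicle lesions. The groups were apart by a small step (log2 fold change -0.32 ± 0.20, unadjusted p = 0.154). Kcnk13, a channel of microglia and macrophages, was at 1.34, 1.69 and 0.812 RPKM in niclosamide 1 to 3 and at 1.25, 0.620 and 0.653 RPKM in vehicle 1 to 3, which overlapped. Of the 5 tested two-pore channels, 3 were above and 2 below 0, and their median was 0.02 on the log2 scale.

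The calcium-activated class held near-equal totals of unequal parts. Kcnn4, the intermediate-conductance channel of lymphocytes, macrophages and epithelia and the second most abundant member, was at 19.1, 21.9 and 9.06 RPKM in niclosamide 1 to 3, against 16.6, 8.71 and 10.9 RPKM in vehicle 1 to 3. Niclosamide 1 and 2 were above all vehicle libraries and niclosamide 3 was not (log2 fold change 0.47 ± 0.38, unadjusted p = 0.264). The other 4 channels of the class summed to 5.83, 4.43 and 6.21 RPKM in niclosamide 1 to 3 and to 6.24, 8.33 and 9.64 RPKM in vehicle 1 to 3. All 3 niclosamide sums were below all vehicle sums, though niclosamide 3 and vehicle 1 nearly touched, and the log2 ratio of the means was -0.56. Kcnn4 had the highest fold change of the class, so leaving it out lowers this ratio by construction.

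Kcnma1, the large-conductance pore that relaxes uterine and vascular smooth muscle, was at 3.45, 3.00 and 2.96 RPKM in niclosamide 1 to 3 and at 3.39, 4.61 and 5.89 RPKM in vehicle 1 to 3. Niclosamide 1 and the pooled vehicle 1 were nearly equal, and the other vehicle libraries were above all niclosamide libraries (log2 fold change -0.56 ± 0.21, unadjusted p = 0.0342, adjusted p = 0.675). Without vehicle 3 the log2 fold change was -0.34 and the unadjusted p 0.115. Kcnn3, a small-conductance channel of endothelium and uterine muscle, was at 1.49, 1.17 and 2.64 RPKM in niclosamide lesions and at 2.37, 3.02 and 2.95 RPKM in vehicle lesions. Only niclosamide 3 and vehicle 1 overlapped for Kcnn3 (log2 fold change -0.65 ± 0.32, unadjusted p = 0.0818). Kcnma1, Kcnn3, Kcnh2 and Kcnk3 are all known from smooth muscle, and the smooth muscle marker sum was lower in every niclosamide library. Among vehicle libraries, Kcnma1, Kcnn3 and Kcnh2 were lowest in vehicle 1, which had the highest sum. Kcnk3 was lowest in vehicle 2, as the sum was. Among niclosamide libraries, Kcnn3, Kcnh2 and Kcnk3 were lowest in niclosamide 2, as the sum was. Kcnma1 was lowest in niclosamide 3, which had the highest sum of its group. The part of smooth muscle in these values was not tested.

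The sodium-activated Kcnt2 was at 0.507, 0.830 and 1.4 RPKM in niclosamide 1 to 3 and at 0.648, 1.78 and 1.89 RPKM in vehicle 1 to 3, which overlapped. Its relatives Kcnt1 and Kcnu1, a sperm channel, were below 1 TPM.

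Among the accessory subunits, Kcne4, which inhibits Kcnq1 channels, and Kcne3, which holds them open in epithelia, were the most abundant. Kcne4 was at 3.57, 2.95 and 14.3 RPKM in niclosamide 1 to 3 and at 6.75, 8.24 and 9.80 RPKM in vehicle 1 to 3. Kcne3 was at 1.25, 8.23 and 9.81 RPKM in niclosamide lesions and at 7.53, 3.05 and 4.19 RPKM in vehicle lesions. Both ranged wider with niclosamide than with vehicle, and niclosamide 3 was the highest library of each. Without niclosamide 3 the fold change of Kcne4 was -1.33 on the log2 scale, against -0.25 with all libraries.

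The cytosolic subunit Kcnab2 was at 4.42, 3.36 and 2.69 RPKM in niclosamide 1 to 3 and at 3.05, 1.91 and 2.22 RPKM in vehicle 1 to 3, with niclosamide 3 below vehicle 1 (log2 fold change 0.55 ± 0.25, unadjusted p = 0.0697). Its relative Kcnab1 was even, with means of 1.71 ± 0.204 RPKM with niclosamide and 1.82 ± 0.701 RPKM with vehicle (SD, n = 3 each). Kcnip4, a calcium-binding partner of the A-type subunits, had 6, 9 and 9 reads in niclosamide 1 to 3 and 13, 52 and 17 reads in vehicle 1 to 3. The groups did not overlap at these low counts (log2 fold change -1.67 ± 0.54, unadjusted p = 0.0196, adjusted p = 0.642), and without vehicle 2 the log2 fold change of Kcnip4 was -0.98 with an unadjusted p of 0.0663.

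Expressed channels varied more between niclosamide lesions than between vehicle lesions. The ratio of the highest to the lowest library had a median of 2.90 within the niclosamide group and 1.82 within the vehicle group over the 41 expressed members, beside 1.46 and 1.31 over all genes at 1 TPM or more. It was wider with niclosamide for 33 of the 41 (80.5%), beside 67.7% of all such genes. A ratio above 5 was found within the niclosamide group for 12 members, or 29.3%, and within the vehicle group for 0. The shares for all genes were 7.34% with niclosamide and 1.77% with vehicle. The pooled vehicle 1 averages over 4 mice, and what part this has in the narrower vehicle range was not tested.

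Of 23 partner genes of channels (regulatory subunits, calcium channels and transporters that are no members), 19 were tested, 6 above and 13 below 0, and 0 passed the adjusted test with edgeR or with DESeq2. With edgeR, 2 had an unadjusted p under 0.05, or 10.5%, beside 6.92% of all genes tested. Both were lower with niclosamide, where 3.55% of all genes tested had such a p and were lower. A fold change below 0 was found for 68.4% of the 19, beside 46.3% of all genes tested. The chloride importer Slc12a2 and the calcium release channel Itpr1 were even, with log2 fold changes of 0.03 ± 0.24 and -0.17 ± 0.14. The 2 lower partners were Dpp6, an A-type channel partner, and Cacna1c, the L-type calcium channel pore of smooth muscle. Cacna1c was at 2.28, 1.49 and 2.67 RPKM in niclosamide 1 to 3 and at 3.46, 4.87 and 4.46 RPKM in vehicle 1 to 3, without overlap (log2 fold change -0.99 ± 0.25, unadjusted p = 0.00586, adjusted p = 0.590).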

How the data were processed

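Lesion RNA was sequenced as 6 stranded TruSeq libraries (3 niclosamide, 3 vehicle). For every gene the deposited files hold a raw read count and the exon length. Per the file headers, the authors made them with featureCounts 1.4.6-p4 over exons of GRCm38.p3 with reverse-strand counting and no option for multi-mapping or overlapping reads. Near-identical genes can therefore be undercounted, while antisense pairs (Kcnq1 and Kcnq1ot1, Kcnd3 and Kcnd3os, Kcnmb4 and its antisense genes) are separated by strand. The submitters' processing notes name STAR 2.4.2a, further Trimmomatic 0.33, bcl2fastq 1.8.4 and edgeR 3.12.0.

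From these counts, all genes were tested with edgeR 4.0.16 in R 4.3.3 (filterByExpr with a minimum count of 10, TMM scaling, robust quasi-likelihood fit, group as the only term), with Benjamini-Hochberg adjustment over all genes. SE is the absolute log2 fold change over the root of F. RPKM used TMM-scaled library sizes and the deposited exon lengths, and TPM the same lengths. "Tested" means that a gene passed the filter. The floor of 3 counts covers counting error only. The labels name separate mice except for the pooled vehicle 1. Alternatives were DESeq2 1.42.0, limma-voom (limma 3.58.1) without and with quality weights, other scalings and filters, a replicate block, and leaving out each library. The code was tested on simulated data.

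Members named were the 4 with the highest mean TPM of each class (12 for voltage-gated) and those with an unadjusted p under 0.05; Kcnd2, Kcng1, Kcnj10, Kcnc1, Kcna1, Kcnh1, Cacna1c, Dpp6 and the members at the 1 TPM level or at 0 were named after their values were seen. Some genes that the rule took are not reported here by name but stay in the counts. The members and lists were chosen with earlier results of these data known. Macrophage, stromal, endothelial, nerve, adipocyte and structural RNA lists were also summed. Promoter sequences are from RefSeq; 69 of 95 members were in that table.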

Additional observations from a re-analysis of the deposited data

How the results depend on the processing

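With 3 libraries a group and a wide spread among niclosamide lesions, only large differences in these scarce RNAs could pass. No member was called by edgeR under other scalings, filters, an adjusted p under 0.10 or any library left out, nor by limma-voom; DESeq2 called 1, Kcnf1. The count of members with an unadjusted p under 0.05, 8 with all libraries, ran from 4 (without vehicle 2) to 19 (without niclosamide 3), and was 5 without niclosamide 1. Not all were lower: 12 were lower and 7 higher without niclosamide 3, and 8 lower and 3 higher with DESeq2. No share over all genes tested is given for these alternatives, so their counts have no background. Of the 8 members with such a p with all libraries, the 7 named here had no change of direction in 96 alternatives. Kcnf1 and Kcns1 kept an unadjusted p under 0.05 in each in which they were tested. The other 5 lost it in at least 1. In summed TPM, the accessory total ran from -0.61 (without niclosamide 3) to 0.214 on the log2 scale with a library left out. Also in summed TPM, the calcium-activated total was -0.713 without its highest member, Kcnn4, beside -0.56 in RPKM. The non-coding total was 0.196 as summed CPM. The cause was not tested. The family's expressed count was 48 at 0.5 TPM and 30 at 2 TPM.

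The replicate numbers did not pair the libraries: same-numbered libraries correlated at -0.0846, -0.0875 and 0.266 in their deviations. With a replicate block, 0 members were called and 8 had an unadjusted p under 0.05, 6 lower and 2 higher, of which 6 were among the 8 of the unblocked fit.

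Of 34 named members with a fold change, 16 changed sign in 53 of 473 alternatives for single members; none had an unadjusted p under 0.05. Log2 fold changes with limma-voom, with quality weights and with the block were -0.725, -0.853 and -0.418 for Kcna7, -0.822, -0.914 and -0.537 for Kcnc4, -0.455, -0.648 and -0.293 for Kcnj11, -0.475, -0.783 and -0.462 for Kcnj12, -0.303, -0.171 and -0.276 for Kcnk1, -0.0674, -0.211 and -0.0539 for Kcnn1, and -0.117, -0.187 and -0.102 for Kcnu1. Kcnu1 was also at -0.00249 with upper-quartile scaling, -0.02 without a filter and -0.00382 with the strict filter. Kcnd3 was at -0.0388 with the block. With quality weights, Kcng4 was at -0.111, Kcnj2 at -0.0111, Kcnq1ot1 at -0.0203 and Kcnq5 at -0.141. With a library left out, values ran from -0.859 to 0.969 for Kcna7, -0.309 to 0.258 for Kcnab1, -1.05 to 0.898 for Kcnc4, -0.793 to 0.891 for Kcnd3, -0.0354 to 0.868 for Kcne3, -1.33 to 0.101 for Kcne4, -0.16 to 0.386 for Kcng4, -0.799 to 0.986 for Kcnj11, -1.12 to 1.3 for Kcnj12, -0.207 to 0.715 for Kcnj2, -0.657 to 0.46 for Kcnk1, -0.414 to 0.383 for Kcnn1, -0.976 to 0.0189 for Kcnq1, -0.15 to 0.354 for Kcnq1ot1, -0.364 to 0.919 for Kcnq5 and -0.538 to 0.272 for Kcnu1.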

Other observations

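The remaining cell type lists beside which the channel values stand were as follows, as summed CPM. Macrophage markers (11 of 12 in the files) were at 9207, 7099 and 4593 in niclosamide 1 to 3 and at 5771, 2944 and 3993 in vehicle 1 to 3. Stromal markers were at 14910, 16080 and 21290 in niclosamide lesions and at 18570, 19030 and 19340 in vehicle lesions. Endothelial markers were at 787, 632 and 792 in niclosamide lesions and at 695, 751 and 966 in vehicle lesions. Nerve and Schwann cell markers were at 85.0, 88.3 and 47.2 in niclosamide lesions and at 81.5, 67.1 and 66.6 in vehicle lesions. Adipocyte markers were at 504, 36.6 and 65.7 in niclosamide lesions and at 181, 108 and 56.6 in vehicle lesions. Structural RNAs were at 6475, 3688 and 1827 in niclosamide lesions and at 10500, 5840 and 8498 in vehicle lesions, where 1 niclosamide library lay within the vehicle range.

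The non-coding Kcnmb4os2, antisense to the calcium-activated channel subunit Kcnmb4, was at 0.511, 0.368 and 0.253 RPKM in niclosamide 1 to 3 and at 0.0685, 0.155 and 0.295 RPKM in vehicle 1 to 3 (log2 fold change 1.10 ± 0.57, unadjusted p = 0.0967). Kcnmb4 itself was at 0.976, 0.480 and 0.337 RPKM in niclosamide 1 to 3 and at 0.275, 0.259 and 0.385 RPKM in vehicle 1 to 3 (log2 fold change 0.96 ± 0.48, unadjusted p = 0.0878). Both were highest in niclosamide 1, and in both only the lowest niclosamide and the highest vehicle library overlapped. Kcnmb4os2 had 24, 19 and 13 reads in niclosamide 1 to 3 and 3, 9 and 15 reads in vehicle 1 to 3. Its vehicle 1 value lay at the floor of 3 counts. Kcnq1ot1, the antisense transcript in the imprinted Kcnq1 domain, was at 0.134, 0.0867 and 0.184 RPKM in niclosamide lesions and at 0.0804, 0.146 and 0.143 RPKM in vehicle lesions, which overlapped.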
